A study of Mus musculus with 4 samples.

Results

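Genes of the unfolded protein response and the integrated stress response were followed in mouse bone marrow-derived macrophages with and without the transcription factor Batf2, untreated and after stimulation with R848. The 40 genes were selected by name, as those whose symbol or transcript is given for a probe of the array and whose signal passed the scanner's test of being well above background on 1 array or more. All 40 passed, and so did 20628 of the 25107 genes named on the array. The 40 fell into 4 groups by role: 17 genes of a chaperone and endoplasmic reticulum-associated degradation (ERAD) arm, 4 sensors and factors, 11 genes of a PERK-ATF4 arm and 8 cytosolic tRNA synthetases.

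The macrophages had been grown with macrophage colony-stimulating factor from femoral marrow of male C57BL/6J mice, either wild type or Batf2-/-. R848 is a small molecule that activates TLR7, an RNA-sensing receptor of endosomes in mouse cells. The 4 groups were wild type untreated (0 h), wild type with R848 at 100 ng/ml for 8 h, Batf2-/- untreated (0 h) and Batf2-/- with R848 at 100 ng/ml for 8 h. The labels give no untreated array at 8 h, so an effect of R848 cannot be told apart from one of time in culture. Each group had 1 array, so no difference had a replicate check, no test was made, and the labels do not say how many mice stood behind each culture. Batf2 itself, read by 1 probe, had a scaled signal of 32.5 and 94.4 in wild type without and with R848, and 26.9 and 11.3 in the knockout. The last value was not well above background. Neither labels nor headers place that probe inside or outside the deletion, so it does not check the untreated label.

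When unfolded proteins build up in the endoplasmic reticulum, sensors in its membrane respond. IRE1 (Ern1) splices the mRNA of Xbp1, and ATF6 is cut to release a transcription factor. Both raise chaperones and degradation factors. PERK (Eif2ak3) phosphorylates eIF2alpha, which lowers general translation and raises translation of Atf4. PKR, GCN2 and HRI phosphorylate the same protein on viral RNA, amino acid shortage and heme shortage, which is why the shared output is called the integrated stress response. Its targets include amino acid synthesis enzymes, transporters and tRNA synthetases. Much of this signalling acts by splicing, cleavage or translation, which a gene's RNA level on an array does not show.

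A scaled signal is the scanner's background-corrected intensity after each array was brought to a common 75th percentile over all probes, and it is comparable between arrays for 1 gene, not between genes. Differences are given as log2, and a gene was called higher or lower at 2-fold or more. All 40 members were well above background on all 4 arrays at the brightest probe, which gives the value of a gene. Spots of 1 probe repeated 10 times on the array gave a median SD, for a log2 difference taken spot by spot, of 0.0571 in the wild-type response, 0.0475 in the knockout response, 0.0499 between the untreated genotypes, 0.0522 between the R848-treated genotypes and 0.073 for the difference of both responses. Such a spread holds the technical error of an array and none of the variation from culture to culture. Different probes of the same gene were further apart: over the 23 members with several measured probes, the median SD between probes was 0.19 in the wild-type response and 0.17 in the knockout response.

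Promoters of members were searched on both strands for the sequence elements for which the pathway is known. The windows, from RefSeq (GRCm38.p6), hold 250 bases before and 50 bases from each start site. They were found for 35 of the 40 members, with 37 windows, and for 27025 genes with 32851 windows in all. Hyou1, Manf, Atf6, Cars and Wars had no entry. The endoplasmic reticulum stress element (ERSE), searched as CCAAT, any 9 bases and CCACG, was present in 7 of the 15 chaperone and ERAD members with a window: Calr, Canx, Creld2, Dnajc3, Hsp90b1, Hspa5 and Pdia6. It was present in 39 of all windows (0.119%) and in no window of the other groups. ERSE-II, searched as ATTGG, any 1 base and CCACG, was present in Herpud1 and Dnajb11 and in 12 of all windows (0.0365%). ERSE and ERSE-II share the letters CCACG, and no member held both. The amino acid response element, searched as TGATGNAAT, was present in 3 of the 6 tRNA synthetases with a window (Aars, Gars and Iars), in no window of the PERK-ATF4 arm, and in 317 of all windows (0.965%). The XBP1 element TGACGTGG was present in no member's window and in 222 of all windows (0.676%). A match describes the letters of the window and not a site in use. An absence covers these exact letters within the window alone, so an element with other letters or farther away would be missed. The elements are in capitals in the following 6 stretches, chosen to show each kind of match in a member described in the results. Each is read 5′ to 3′ on the strand of its gene, and positions count the start site as 0.
Hspa5, chr2:34771970-34772089, plus strand, with ERSE at -65 to -47: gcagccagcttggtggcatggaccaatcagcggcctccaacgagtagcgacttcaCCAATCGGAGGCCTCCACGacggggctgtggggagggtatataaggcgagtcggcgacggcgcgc
Hsp90b1, chr10:86705515-86705674, minus strand, with ERSE at -212 to -194 and in reverse at -107 to -89: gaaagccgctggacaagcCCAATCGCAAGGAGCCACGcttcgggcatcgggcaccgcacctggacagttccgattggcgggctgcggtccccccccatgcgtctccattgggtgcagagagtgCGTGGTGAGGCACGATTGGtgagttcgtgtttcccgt
Pdia6, chr12:17266469-17266588, plus strand, with ERSE at -98 to -80: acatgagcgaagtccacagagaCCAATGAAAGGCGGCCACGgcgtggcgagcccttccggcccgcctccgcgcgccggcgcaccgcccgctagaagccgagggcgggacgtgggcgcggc
Herpud1, chr8:94386309-94386428, plus strand, with ERSE-II at -52 to -42: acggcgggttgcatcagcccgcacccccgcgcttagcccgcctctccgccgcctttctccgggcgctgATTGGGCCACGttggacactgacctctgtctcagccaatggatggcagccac
Aars, chr8:111033702-111033781, plus strand, with the amino acid response element in reverse at -113 to -105: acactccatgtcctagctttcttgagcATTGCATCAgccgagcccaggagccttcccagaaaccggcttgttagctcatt
Gars, chr6:55037921-55038000, plus strand, with the amino acid response element in reverse at -31 to -23: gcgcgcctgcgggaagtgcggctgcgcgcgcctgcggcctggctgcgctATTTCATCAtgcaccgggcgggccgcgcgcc

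R848-treated and untreated wild-type macrophages were compared first, to see how these genes differ between 8 h with R848 and 0 h. By the brightest probe, the chaperones stayed within 2-fold of their untreated values. The amino acid enzymes Phgdh and Asns and the tRNA synthetase Aars rose, and the sensor PERK (Eif2ak3) and the receptor gene Vldlr fell. That made 3 of 40 members (7.5%) at least 2-fold higher, where 6.19% of all 18763 genes measured were, and 2 of 40 (5%) at least 2-fold lower, where 7.01% of all genes were. Both shares lie near those of all genes. The arm medians were 0.58 for the tRNA synthetases, 0.24 for the PERK-ATF4 arm, 0.17 for the chaperone and ERAD arm and -0.20 for the sensors and factors, beside -0.029 for all genes. The PERK-ATF4 median is the value of Ddit3, whose probes disagree, and it was 0.10 with RefSeq probes alone or with the mean over probes. The chaperone and ERAD median lay between 0.061 and 0.33 under 9 other ways of processing the arrays.

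In Batf2-/- macrophages the comparison was repeated, to see which differences occur without the factor. Asns and the tRNA synthetase Iars rose, and the disulfide isomerase Pdia4 and the tRNA synthetase Yars fell, the last at its brightest probe alone. Here 2 of 40 members (5%) were at least 2-fold higher, beside 6.84% of all 19840 genes measured, and 2 (5%) were at least 2-fold lower, beside 6.57%. The medians were 0.54 for the tRNA synthetases, 0.28 for the PERK-ATF4 arm (again the value of Ddit3, and 0.051 with the mean over probes), 0.023 for the chaperone and ERAD arm (-0.077 with quantile normalization) and -0.14 for the sensors and factors (0.0069 with each array centred on its median), beside -0.059 for all genes. Centring each array on its median in place of its 75th percentile raised the median of all genes by 0.16 in the wild-type response and by 0.14 in the knockout response. Set against the median of all genes, the tRNA synthetases stood 0.61 above it in wild type and 0.59 above it in the knockout. That distance was between 0.46 and 0.62, and between 0.40 and 0.62, under the same 9 alternatives. The chaperone and ERAD arm stood 0.082 above all genes in the knockout and 0.037 below them under both normexp background correction and quantile normalization, so its direction there is not settled.

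**Figure D1:**
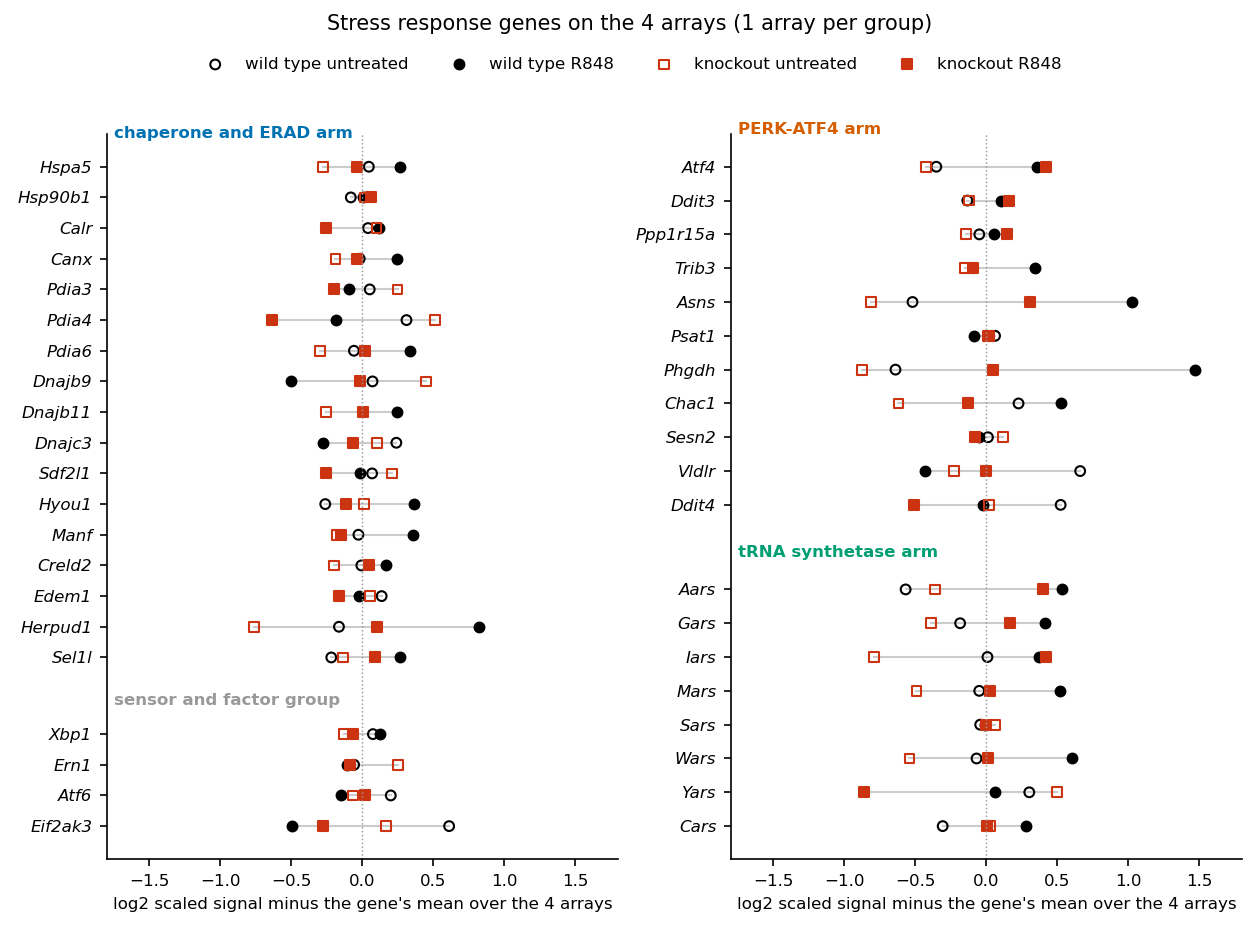
Each row is 1 gene and each symbol 1 array; the x axis is the log2 scaled signal minus the gene's own mean over the 4 arrays. The widest rows are Phgdh and Asns, with wild type with R848 at the right end, and most chaperone rows are narrow.

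Among the sensors and factors, PERK alone passed 2-fold in any comparison. Eif2ak3 (PERK) had a scaled signal of 109.8 in untreated wild type, 51.1 in wild type with R848, 80.6 in the untreated knockout and 59.2 in the knockout with R848. Both R848 arrays were below both untreated arrays. The log2 difference with R848 was -1.10 in wild type and -0.44 in the knockout, and the first was under 2-fold with median centring (-0.95), quantile normalization (-0.97) and normexp (-0.58). Xbp1, whose spliced mRNA encodes a main factor of the response, read 1905 and 1969 in wild type without and with R848 and 1653 and 1729 in the knockout. Its 3 probes lay between -0.26 and 0.048 for the wild-type response, and whether they read the spliced or the unspliced form was not examined. Ern1 encodes IRE1, the sensor that carries out that splicing. It read 1094 and 1058 in wild type and 1357 and 1072 in the knockout, in the same order. Atf6 read 1648 and 1291 in wild type and 1369 and 1456 in the knockout. By the brightest probe, each of these 3 genes stayed within 1.28-fold between any pair of arrays compared. Other probes differed more. The second Ern1 probe, on the RefSeq transcript, gave -0.58 in the wild-type response and -0.63 in the knockout response. The other Xbp1 probes were lower in the knockout, at -0.57 and -0.66 untreated and at -0.32 and -0.61 with R848. Between genotypes no sensor or factor was 2-fold apart, with and without R848.

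The chaperone and ERAD arm holds the folding machinery of the endoplasmic reticulum. Hspa5 encodes BiP, the Hsp70 chaperone that also binds the sensors at rest. Its scaled signal was 6699.6 in untreated wild type, 7819 in wild type with R848, 5358 in the untreated knockout and 6332 in the knockout with R848. The R848 array was the higher in each genotype and the knockout array the lower at each time, and the difference with R848 was 0.22 in wild type and 0.24 in the knockout. All 3 probes of Hspa5 went the same way in both responses and in both comparisons of genotypes. Hsp90b1, which encodes GRP94, differed least in the arm, by 1.07-fold at most in any comparison.

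Pdia4, a disulfide isomerase of the lumen, was the only gene of the arm called in any comparison with arrays scaled at their 75th percentile. Its signal was 535 and 380 in wild type without and with R848, and 615 and 277 in the knockout. The R848 arrays were the lower in both genotypes, with a difference of -0.49 in wild type and -1.15, or 2.22-fold, in the knockout. Under normexp the knockout value was -0.996, just short of 2-fold. Herpud1, which organises the ERAD complex at the membrane, lay just inside that limit: its signal was 349 and 693 in wild type and 231 and 421 in the knockout. The difference with R848 was 0.99 (1.98-fold) in wild type and 0.87 in the knockout. With median centring both passed 2-fold, at 1.14 and 1.01. Both of its probes went the same way in all comparisons. By the brightest probe, no other chaperone or ERAD gene had a response above 0.63 in either genotype.

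The other members of the arm went in both directions. In the wild-type response 11 of 17 were above 0 and 6 below, from -0.57 at Dnajb9 to Herpud1, and in the knockout 9 were above and 8 below. Among all genes, 47.3% were above 0 in wild type and 44.5% in the knockout. Dnajb9, an Hsp40 co-chaperone that is a known target of XBP1, stood at -0.57 in wild type and -0.47 in the knockout, with both probes below 0. Dnajc3, which encodes the co-chaperone p58IPK, stood at -0.52 and -0.17. For both co-chaperones the R848 array was the lower in each genotype. Above 0 in both genotypes were the calcium-binding lectin chaperone Canx (0.26 and 0.15), the disulfide isomerase Pdia6 (0.40 and 0.32), the BiP co-chaperone Dnajb11 (0.24 and 0.26) and Creld2 (0.17 and 0.25). For these 4 the R848 array was the higher in each genotype, although the second Canx probe gave -0.11 in wild type. The lectin chaperone Calr read 0.079 in wild type and -0.36 in the knockout, and Sdf2l1, a partner of BiP, -0.088 and -0.47. Pdia3, which acts with both lectin chaperones, read -0.15 and -0.45, and Edem1, which directs misfolded glycoproteins to degradation, -0.16 and -0.22. All 4 were lower with R848 in the knockout, by less than 2-fold. The secreted factor Manf stood at 0.39 and 0.023, and Sel1l, the adaptor of the main ERAD ubiquitin ligase, at 0.49 and 0.22. The dimmest Sel1l probe, on an Ensembl transcript, gave 1.22 in wild type and -0.092 in the knockout. Hyou1, an Hsp70-like chaperone, stood at 0.63 and -0.13 by its brightest probe, while its 4 probes ranged from 0.46 to 1.33 in wild type and from -0.39 to 1.32 in the knockout.

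No member with ERSE in its promoter was called in either response. Of all genes measured, 6.19% were called higher and 7.01% lower in wild type, and 6.84% and 6.57% in the knockout. At such shares few calls would fall among 7 genes, so the absence is no result about ERSE. The 7 members with ERSE had responses from -0.52 to 0.40 in wild type (median 0.17) and from -0.36 to 0.32 in the knockout (median 0.15). The pair with ERSE-II was Herpud1 and Dnajb11, whose values are given above, and both were above 0 in both genotypes.

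The PERK-ATF4 arm ranged from -1.09 to 2.11 in the wild-type response and from -0.53 to 1.11 in the knockout response. Atf4 encodes the transcription factor whose translation rises when eIF2alpha is phosphorylated. Its signal was 16825 in untreated wild type, 27515 in wild type with R848, 16006 in the untreated knockout and 28758 in the knockout with R848. Both R848 arrays were above both untreated arrays, with differences of 0.71 in wild type and 0.85 in the knockout, and the second probe gave 0.98 and 0.71. Asns, which makes asparagine and is a standard target of ATF4, read 485 and 1418 in wild type and 396 and 858 in the knockout. It rose 2.93-fold in wild type and 2.17-fold in the knockout (1.55 and 1.11 on the log2 scale). Its second probe gave 1.29 and 0.99, and the knockout rise was 0.98 under normexp.

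Phgdh, the first enzyme of serine synthesis from glucose, had the largest response of any member. Its signal was 117 in untreated wild type, 506 in wild type with R848, 99.7 in the untreated knockout and 189 in the knockout with R848. Wild type with R848 stood above the other 3 arrays. The rise was 4.31-fold (2.11) in wild type and stayed above 2-fold under all 9 other ways of processing, from 1.65 to 2.26, while the knockout response was 0.93, just under 2-fold, and 1.07 with median centring. Phgdh had 1 probe. Psat1, the next enzyme of the same path, did not share this: it read 257 and 231 in wild type and 249 and 248 in the knockout, differences of -0.15 and -0.0077.

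The regulators and stress effectors of the arm gave smaller values. Ddit3 encodes CHOP, a transcription factor linked to cell death under long stress. At its brightest probe it read 3716 and 4374 in wild type and 3742 and 4549 in the knockout, differences of 0.24 and 0.28. The other probe, placed on the RefSeq transcript, read 303 and 179.6 in wild type and 237 and 136 in the knockout, differences of -0.75 and -0.79. The probes thus gave opposite directions in both genotypes, and no direction is given for Ddit3. Ppp1r15a (GADD34), which returns eIF2alpha to its unphosphorylated form, stood at 0.10 in wild type and 0.29 in the knockout. Trib3, Chac1, Sesn2 and Ddit4 were also under 2-fold. Trib3, a pseudokinase that binds ATF4, stood at 0.43 and 0.051, Chac1, which degrades glutathione, at 0.30 and 0.49, and the stress-induced Sesn2 at -0.061 and -0.20. Ddit4, an inhibitor of mTORC1, was below 0 in both, at -0.55 and -0.53.

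Vldlr, a lipoprotein receptor known as a target of ATF4 in other cells, was dim. Its signal was 68.1 in untreated wild type, 31.9 in wild type with R848, 36.8 in the untreated knockout and 43.0 in the knockout with R848. Untreated wild type stood apart from the other 3. The wild-type response was -1.09, and it was under 2-fold with median centring (-0.94), quantile normalization (-0.92) and normexp (-0.52). In the knockout the brightest probe gave 0.22. The second, dimmer probe was well above background on the untreated arrays alone, so it gives bounds. By these the R848 array was at least 2.23-fold lower for wild type and at least 2.78-fold lower for the knockout. A bound sets the dim array to the lowest signal that passed the background test there. With bounds on both R848 arrays, the second probe could only read lower in each response. Its direction therefore does not check that of the brightest probe.

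**Figure D2:**
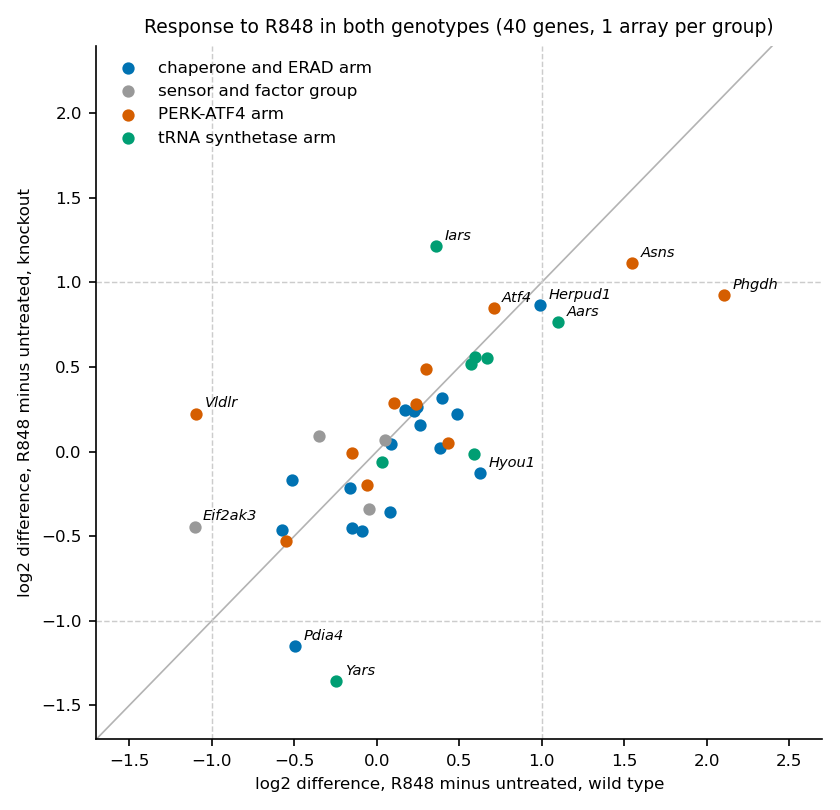
Each point is 1 of the 40 genes, coloured by group, with the log2 difference of R848 against untreated in wild type on the x axis and in the knockout on the y axis; dashed lines mark 2-fold and the solid line equal values. Phgdh and Vldlr lie farthest from the solid line along the x axis, and Iars and Yars along the y axis.

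The tRNA synthetases load amino acids onto tRNAs, and 7 of the 8 were above 0 in the wild-type response, where 47.3% of all genes were. In the knockout response 5 of the 8 were above 0, beside 44.5% of all genes. Aars (alanine) read 228 and 489.8 in wild type without and with R848, and 263 and 447 in the knockout. Both R848 arrays were above both untreated arrays. The rise was 2.15-fold (1.101) in wild type, and the knockout value was 0.77. Its 2 other probes, both on Ensembl transcripts, gave -0.022 and 0.21 in wild type and -0.28 and -0.045 in the knockout. The knockout rise thus rests on the brightest probe. In wild type the mean over all 3 probes was 0.43. Under normexp the wild-type value was 0.86.

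Iars (isoleucine) read 239.6 and 307 in wild type and 137 and 319 in the knockout. The untreated knockout array was the low one, and the other 3 were closer together. The response was 0.36 in wild type, and in the knockout Iars rose 2.32-fold (1.21, or 0.91 under normexp). Yars (tyrosine) read 219 and 185 in wild type and 251 and 98.0 in the knockout at its brightest probe, which lies on an Ensembl transcript. That gave -0.24 in wild type and -1.36 in the knockout. The 2 probes on the RefSeq transcript gave 0.53 and 1.26 in wild type and 0.65 and 0.9995 in the knockout. The call of Yars as lower therefore rests on the Ensembl probe, and its direction turned when RefSeq probes alone were used.

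Of the remaining synthetases, Gars, Mars and Wars gave close values in both genotypes. Gars (glycine) stood at 0.60 in wild type and 0.56 in the knockout, Mars (methionine) at 0.57 and 0.52, and Wars (tryptophan), also known as an interferon-induced gene, at 0.67 and 0.55. The R848 array was thus the higher for all 3 in each genotype. Sars (serine) stood at 0.031 and -0.065, although its Ensembl probe read -1.05 in the knockout. Cars (cysteine) stood at 0.59 in wild type and -0.018 in the knockout. By the brightest probe, the 3 members with the amino acid response element, Aars, Gars and Iars, ranged from 0.36 to 1.101 in wild type. In the knockout they ranged from 0.56 to 1.21.

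**Figure D3:**
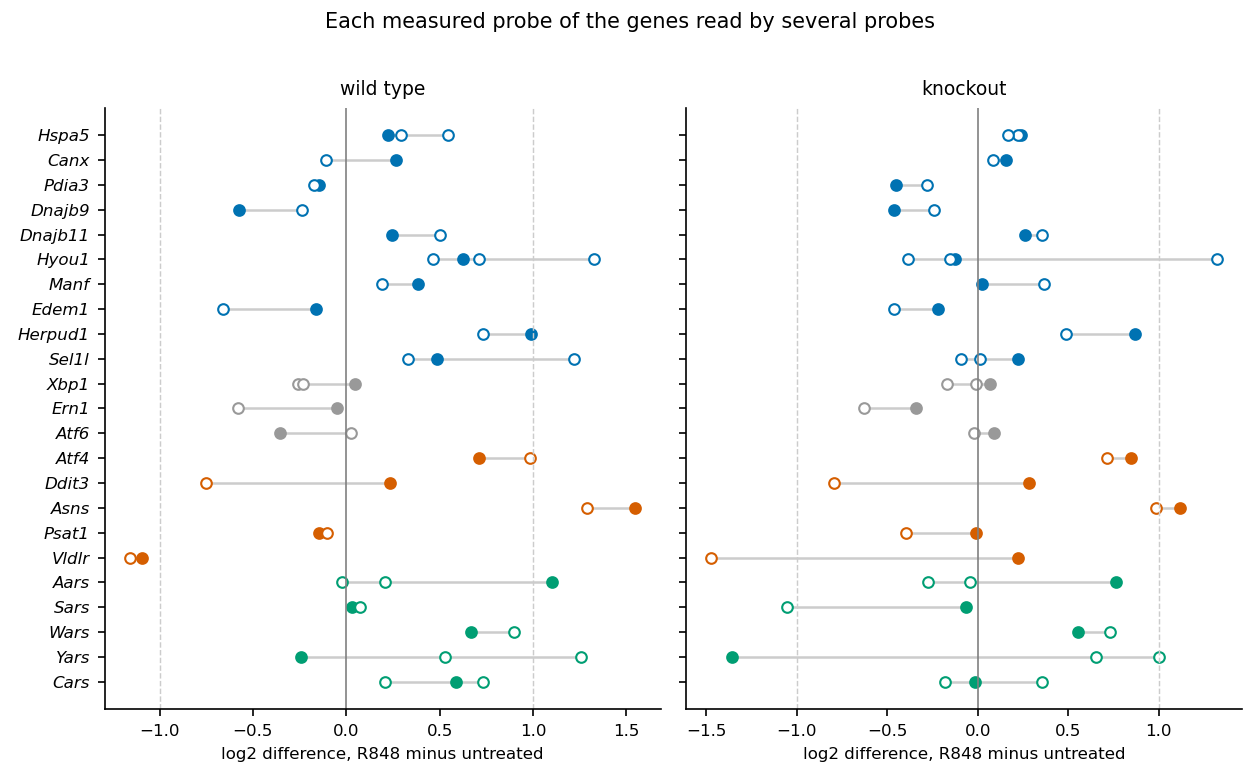
Each row is 1 of the 23 genes read by several measured probes, with the log2 difference of R848 against untreated on the x axis, wild type on the left and the knockout on the right. Filled points are the brightest probe and open points the others; in the knockout the probes of Yars range from -1.36 to 0.9995 and those of Hyou1 from -0.39 to 1.32. The open points of Vldlr are bounds.

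Probes of the same member went the same way for 17 of 23 genes in the wild-type response and for 14 of 23 in the knockout response. Vldlr is among the 23, although its second probe could only read lower in both responses. Across the 40 members the responses of both genotypes, which share no array, had a Pearson correlation of 0.70 and a Spearman correlation of 0.77, and 34 had the same sign. These are descriptions over genes that share 4 arrays. Within the arms the Pearson values were 0.79 for the 17 chaperone and ERAD genes, 0.78 for the 11 of the PERK-ATF4 arm and 0.72 for the 8 synthetases.

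Comparing knockout with wild type without R848 asked whether Batf2 loss alone moves these genes. None of the 40 members was 2-fold higher or lower, where 2.8% of all 20301 genes measured were higher and 3.18% lower. By the brightest probe, values ran from -0.89 at Vldlr to 0.38 at Dnajb9. The second probes of these genes gave 0.027 and -0.17, so neither extreme was shared by both probes. Apart from Vldlr the lowest were Chac1 at -0.85, Iars at -0.80 and Herpud1 at -0.60. The medians were -0.081 for the chaperone and ERAD arm, -0.24 for the sensors and factors, -0.096 for the PERK-ATF4 arm and -0.052 for the synthetases, beside 0.055 for all genes. In the PERK-ATF4 arm 9 of 11 members were below 0, where 43.2% of all genes were. This count was between 7 and 10 under the 9 other ways of processing. Among the 9, Atf4 (-0.072) and Psat1 (-0.043) lay near 0 and had a second probe above it.

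With R848, knockout cells had less Phgdh and slightly lower signals of most chaperones than wild-type cells. Phgdh was 2.67-fold lower (-1.42, and between -1.46 and -1.13 under the 9 other ways of processing). It was the 1 member of 40 (2.5%) past 2-fold, beside 2.45% of all 18768 genes measured, and no member was 2-fold higher, beside 2.34%. After Phgdh came Yars at its brightest probe at -0.92, Asns at -0.72 and Herpud1 at -0.72. Both RefSeq probes of Yars were near 0 (0.0435 and -0.0375). Both probes of Asns (-0.72 and -0.64) and both of Herpud1 (-0.72 and -0.74) gave the same direction.

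In the chaperone and ERAD arm 14 of 17 members were below 0 with R848, where 45.1% of all genes were, and this count was 14 under each of the 9 other ways of processing. The median was -0.24, which is 0.28 below that of all genes, and the 17 values ran from -0.72 to 0.48. The 3 above 0 were Dnajb9 at 0.48 (-0.17 by its second probe), Dnajc3 at 0.21 and Hsp90b1 at 0.056. Below were Manf at -0.51, Hyou1 at -0.48, Pdia4 at -0.45, Calr at -0.38, Pdia6 at -0.31, Hspa5 at -0.30 and Canx at -0.28, with Herpud1 at -0.72 and the other 6 between -0.24 and -0.11. All 14 values below 0 were larger in size than the spread between spots, and 10 of them exceeded the median SD between probes of the same gene (0.20). Over all genes the quartiles were -0.17 and 0.25, so values of such size were common, and passing either spread sets no member apart. With 1 array per group, a difference between cultures cannot be told apart from the genotype. The synthetases had a median of -0.26 with 6 of 8 below 0, the PERK-ATF4 arm -0.029 with 6 of 11 below, and the sensors and factors 0.097. With RefSeq probes alone the PERK-ATF4 median was -0.40.

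**Figure D4:**
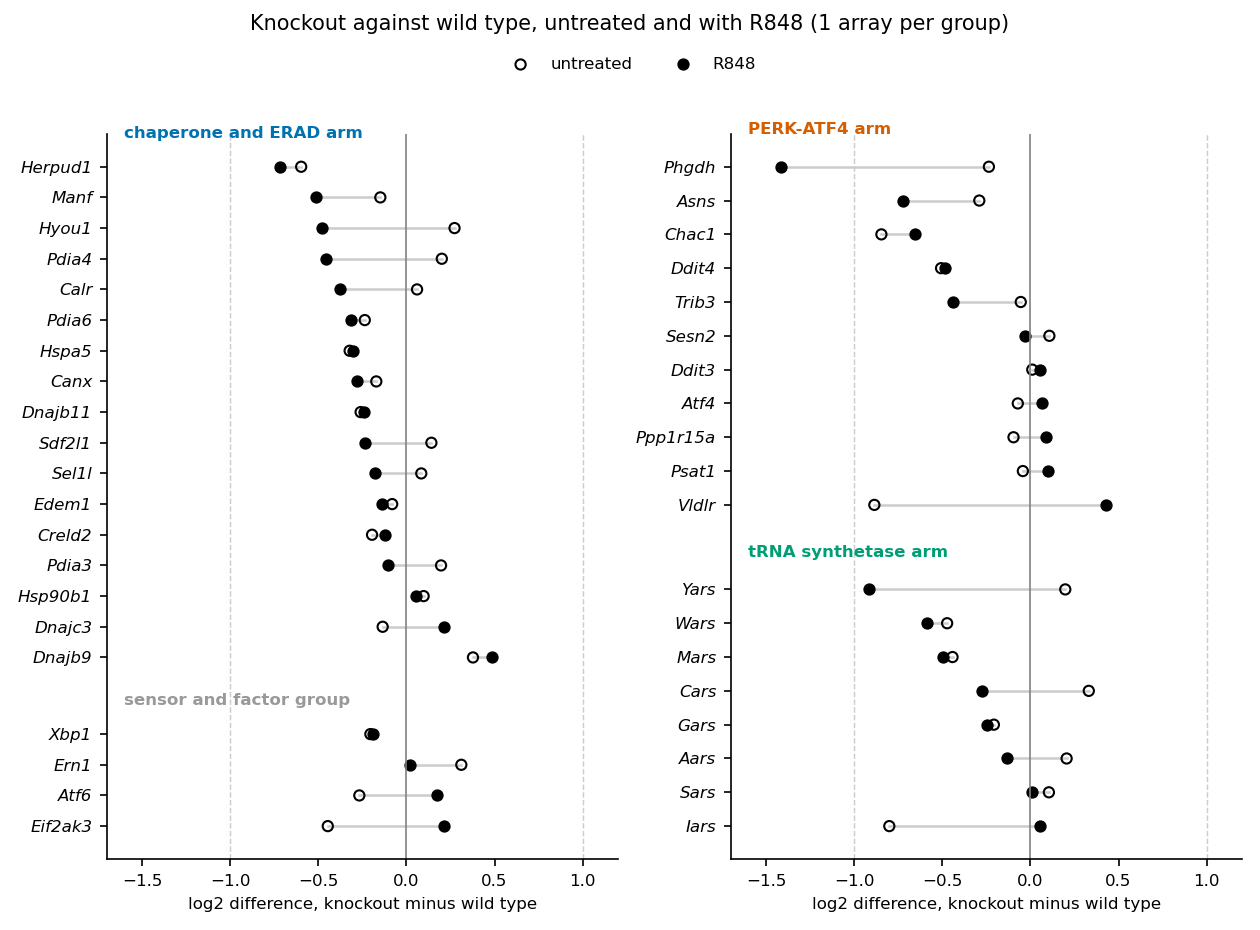
Each row is 1 gene, with the log2 difference of knockout against wild type on the x axis, open symbols untreated and filled symbols with R848; dashed lines mark 2-fold. With R848, 14 of 17 chaperone and ERAD genes lie left of 0, and Phgdh alone is past 2-fold.

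Markers of other cells moved with the genotype. All 8 basophil and mast cell markers were lower in the untreated knockout, with a median log2 difference of -2.88, and all 8 with R848, with a median of -2.46. Both medians take markers not well above background in the knockout at their bound. Such a marker could only read lower, so it adds nothing to the counts of 8. Their summed scaled signal was 6015 and 3536 in wild type without and with R848, and 618 and 683 in the knockout. A sum is carried by its brightest probes: Hdc read 199 and 481 in the knockout without and with R848, while 6 of the 7 markers with a knockout response were below 0 (median -0.75). A marker well above background on the untreated knockout array but not with R848 could only read lower in that response. This count and median include such bounds, so they do not check the direction. In the knockout, 7 of the 8 were well above background untreated and 4 with R848, and all 8 were on both wild-type arrays. The 10 granulocyte precursor markers, all above background on all arrays, were also lower in the knockout, with a median of -1.65 untreated and -1.20 with R848. Untreated, Mpo was 14.8-fold lower and Ctsg 16.2-fold, while S100a9, the brightest, was 1.51-fold lower. The sums were 159530 and 123932 in wild type and 85465 and 79127 in the knockout. The 12 macrophage markers were well above background on all 4 arrays, with sums from 222463 to 263732, the knockout arrays being the higher. B and plasma cell sums lay between 3152 and 4584, T and NK cell sums between 2709 and 3225, and dendritic cell sums between 9576 and 11164. A marker counted as measured only where it was well above background on 1 array or more. This held for 7 of 10 B and plasma cell markers, 5 of 6 T and NK cell markers and all 6 dendritic cell markers. The part of other cells in the genotype differences of the stress genes was not tested, and in bulk RNA fewer cells of a type cannot be told apart from less RNA per cell.

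The difference between the responses, knockout minus wild type, asked whether the change from 0 h to 8 h with R848 differs between the genotypes. At least 2-fold higher was 1 member (Vldlr), or 2.5% of 40, beside 3.14% of all 18457 genes measured, and 2 were lower (Phgdh and Yars), or 5%, beside 2.5%. Phgdh stood at -1.18, with the knockout rise the smaller, and at -0.996 under normexp. Yars stood at -1.11 by its Ensembl probe and between -0.26 and 0.12 by its RefSeq probes. Vldlr stood at 1.32 by its brightest probe, and at -0.31 by the second. The second value is no bound, since that probe was set to the lowest passing signal on both R848 arrays. The direction of the second probe therefore does not check that of the brightest. Next in size were Iars at 0.85, Hyou1 at -0.75, Eif2ak3 at 0.66, Pdia4 at -0.65 and Cars at -0.61. The medians were -0.11 for the chaperone and ERAD arm and for the synthetases, 0.0465 for the PERK-ATF4 arm, or -0.067 with the mean over probes, and 0.23 for the sensors and factors, beside -0.016 for all genes. Of the synthetases 7 of 8 were below 0, and of the chaperone and ERAD genes 12 of 17, where 51.9% of all genes were.

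Other genes of the same pathways were read from lists of 48 further endoplasmic reticulum folding and ERAD genes, 37 further integrated stress response genes, 15 further genes of the cytosolic tRNA synthetase machinery and 17 mitochondrial tRNA synthetases. Of the 47 folding and ERAD genes measured in the wild-type response, 1 was 2-fold higher and 1 lower (median 0.049), and in the knockout 2 of 48 were higher and none lower (median 0.042). Among all genes, 6.19% were higher and 7.01% lower in wild type (median -0.029). In the knockout 6.84% were higher and 6.57% lower (median -0.059). Dnajc10, a reductase that assists ERAD, rose in both, 2.06-fold in wild type and 2.97-fold in the knockout. The transcription factor gene Creb3l2 fell 2.34-fold in wild type, and Atf6b, a relative of ATF6, rose 2.19-fold in the knockout. The median between genotypes with R848 was 0.085 for this list. Below 0 were 18 of 47, beside 14 of 17 in the chaperone and ERAD arm and 45.1% of all genes. Wfs1, a membrane protein of the endoplasmic reticulum, was 2.24-fold higher in the knockout with R848.

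The further integrated stress response genes held the larger responses. In wild type 7 of 35 were 2-fold higher and 3 lower, and in the knockout 10 of 36 were higher and 5 lower. Of all genes measured, 6.19% were higher and 7.01% lower in wild type, and 6.84% and 6.57% in the knockout. Slc7a11, the cystine importer, read 63.7 and 1362 in wild type and 130.1 and 2230 in the knockout. It rose 21.4-fold and 17.1-fold, and it was 2.04-fold higher in the knockout before treatment. Nupr1, a stress-induced chromatin protein, rose 3.47-fold and 2.63-fold, the arginine and lysine importer Slc7a1 3.41-fold and 2.32-fold, and Mthfd2, a mitochondrial folate enzyme, 2.50-fold and 3.44-fold. Eif2ak2 encodes PKR, an interferon-induced eIF2alpha kinase, and rose 2.22-fold in wild type and 3.57-fold in the knockout. The growth factor Vegfa fell 2.74-fold and 4.09-fold, and the aspartate aminotransferase Got1 2.49-fold and 2.94-fold. The list thus held large differences in both directions, and its median was 0.17 in wild type and 0.18 in the knockout.

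The further cytosolic synthetase genes had a median of 0.55 in wild type, with 14 of 15 above 0, and 0.47 in the knockout, with 10 of 15 above 0. Among all genes, 47.3% were above 0 in wild type and 44.5% in the knockout. Called among them were Eef1e1, a scaffold protein of the multisynthetase complex, which rose 3.09-fold in wild type and 3.06-fold in the knockout, and its partner Aimp2, which rose 2.09-fold in the knockout. The mitochondrial synthetases had medians of 0.13 and -0.080, although Ears2 rose 3.69-fold and 4.32-fold. With R848 the knockout was below wild type for 12 of 15 further cytosolic genes (median -0.21) and for 9 of 16 mitochondrial ones (median -0.060). It was below wild type for 45.1% of all genes.

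**Figure D5:**
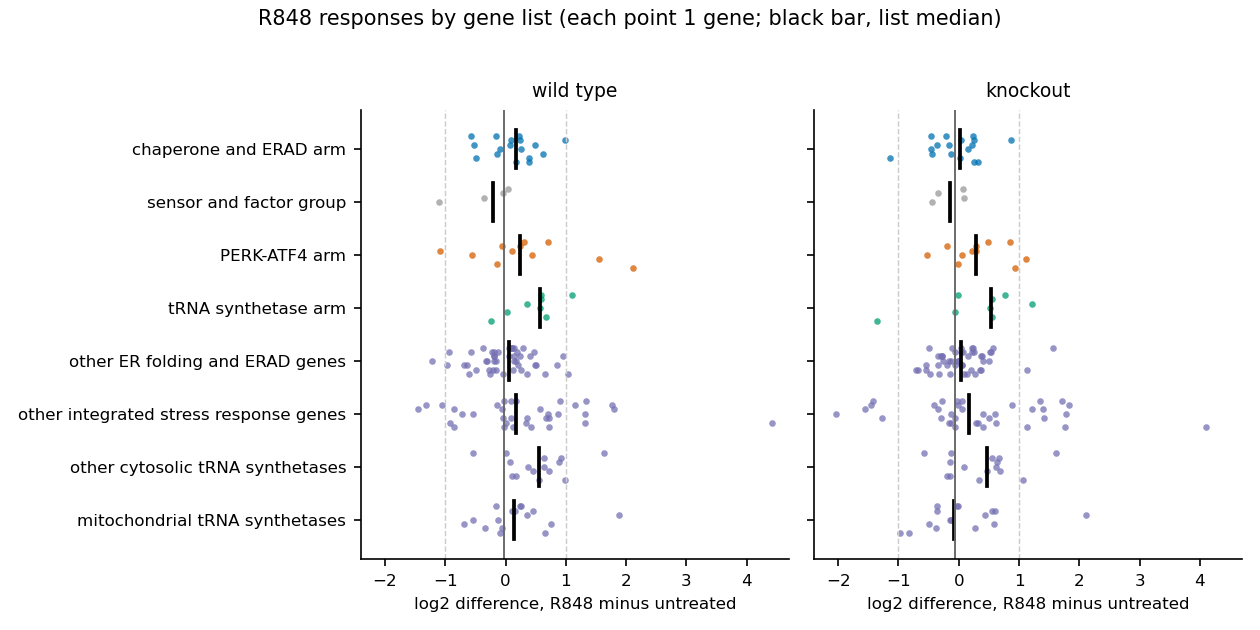
Each point is 1 gene, placed by its log2 difference of R848 against untreated, with the 4 groups of members on top and the 4 further lists below; black bars are list medians, the grey line the median of all genes and dashed lines 2-fold. The medians of both cytosolic synthetase lists lie between 0.47 and 0.58, and Slc7a11 is the point beyond 4.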

How the data were processed

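Total RNA of each culture was labelled with Cy3 and hybridised to 1 Agilent array per group, with groups taken from the labels. Per the file headers, the deposited signals are an intensity on a linear scale from Agilent Feature Extraction 11.5.1.1, with background and a spatial trend removed and no normalization between arrays. Each array held 59305 spots that are not controls, for 56605 probes. Of the probes, 60.6% to 71.4% were well above background, 70 to 115 spots per array marked as outliers were left out, and no spot was saturated.

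Spots were averaged per probe on the log2 scale, and each array's 75th percentile over probes was subtracted. Printed scaled signals were brought back to the mean 75th percentile of 264. A gene took the value of its brightest measured probe. Genes were named through the authors' table, whose intensity columns are proportional to the processed signal of their arrays within 1%, and through RefSeq of GRCm38.p6. The authors' log2 ratios of 1 array over another, deposited beside these columns, were not used. No test was made with 1 array per group, and precision is limited by that number.

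The 40 members and all gene lists were chosen with earlier results of these data known. Every member's values are accounted for, and signals on all 4 arrays are given for members called in any comparison and for the sensors, Atf4, Ddit3 and Hspa5. Herpud1, Psat1 and genes of the further lists were added after their values were seen or by size within their list. The alternatives were normexp background correction (offset 50), quantile normalization, median centring, the authors' table, the mean over probes, only probes well above background on all arrays, no filter, leaving out bright areas of the slide, and RefSeq probes only. Normexp used the median spot signal, since the mean was not among the columns. The tools were Python 3.11.15, pandas 2.3.3, R 4.3.3 and limma 3.58.1. The scripts' arithmetic was checked on simulated data.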

Additional observations from a re-analysis of the deposited data

Results flagged for a closer look

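Vldlr was the member whose responses had opposite signs and lay at least 2-fold apart, with a difference between the responses of 1.32 on the log2 scale (-1.09 in wild type and 0.22 in the knockout). With 1 array per group this difference was not tested. Its signal was between 31.9 and 68.1 on the 4 arrays, and the value was 0.65 under normexp. Its second probe, not well above background with R848, gave -0.31 with those arrays set to the lowest passing signal, and the mean over both probes was 0.50.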

How the results depend on the processing

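No paired analysis was possible because each group had 1 array, and for the same reason no replicate could be left out. Of 270 arm medians and counts of called members recomputed under the 9 alternatives, 217 moved by less than the spread between spots or, for counts, by no more than 1.5 times. The authors' table, stricter and absent filters and leaving out bright areas moved none of them past that. The causes of the following shifts were not tested. With normexp, the synthetase median in the wild-type response was 0.46 and 0 members were lower. In the knockout response the medians were -0.070 for the chaperone and ERAD arm, 0.14 for the PERK-ATF4 arm and 0.37 for the synthetases, with 0 members higher and 0 lower. The untreated sensor median between genotypes was -0.18, and 0 members were higher or lower in the difference between responses. Quantile normalization gave, in the wild-type response, medians of 0.061 for chaperones, -0.30 for sensors, 0.11 for the PERK-ATF4 arm and 0.52 for synthetases, with 0 members lower, and in the knockout -0.077 for chaperones and -0.19 for sensors. Median centring gave 0.33, -0.046, 0.39 and 0.73 in the wild-type response in that order, with 0 lower, and 0.17, 0.0069, 0.43 and 0.68 in the knockout, with 4 higher. The mean over probes gave in the wild-type response 0.087 for chaperones, 0.10 for the PERK-ATF4 arm and 0.51 for synthetases. In the knockout it gave -0.24 for sensors, 0.051 for the PERK-ATF4 arm and 0.33 for synthetases, with 1 member lower and Yars turned to 0.098. Between genotypes it gave -0.32 for sensors and -0.17 for the PERK-ATF4 arm untreated, and 0.026 and -0.17 with R848. For the difference between responses it gave 0.15 for sensors, -0.067 for the PERK-ATF4 arm and -0.21 for synthetases, with 0 higher and 1 lower. RefSeq probes only, an alternative chosen after seeing the data, gave -0.47 for sensors and 0.10 for the PERK-ATF4 arm in wild type, and -0.19 and 0.22 in the knockout with 1 lower. Yars turned to 0.65 in the knockout response and 0.12 in the difference between responses, which had 1 member lower. Between genotypes the PERK-ATF4 arm and the synthetases stood at -0.24 and -0.14 untreated and at -0.40 and -0.19 with R848. Median centring took Herpud1 past 2-fold in both responses (1.14 and 1.01) and Phgdh in the knockout (1.07). Signal limits dim members: Vldlr, Eif2ak3 and Chac1 read between 31.9 and 109.8, of the order of the offset of 50 that normexp adds, which shrinks differences of dim signals by construction.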
